A study of Mus musculus with 2 samples.

Results

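Reln-rich glutamatergic nuclei are nuclei that passed a count rule for cortical excitatory neurons and held an unusually large number of reelin transcripts. They were chosen by counts of unique molecular identifiers (UMIs), the tags that let each captured RNA molecule be counted once. A nucleus was eligible with at least 6000 UMIs in all, at least 2 UMIs of Slc17a7, which encodes the vesicular glutamate transporter of cortical excitatory neurons, and at most 3 UMIs of Gad1 and Gad2 together, the genes of GABA synthesis. It was Reln-rich if it also held at least 10 UMIs of Reln. The rule found 257 Reln-rich nuclei among 3844 eligible nuclei and 12918 nuclei in all. Of these, 141 came from the vehicle library, out of 1741 eligible and 6745 nuclei, and 116 from the OLE library, out of 2103 eligible and 6173 nuclei.

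Reelin is a large secreted glycoprotein. It binds the lipoprotein receptors encoded by Vldlr and Lrp8, and the adaptor encoded by Dab1 then passes the signal to kinases inside the receiving cell. It guides neuronal migration in the embryo. In the adult cortex it is made mainly by interneurons, and in the entorhinal cortex also by stellate and fan cells of layer 2, excitatory neurons whose axons form the perforant path to the hippocampus and which are among the first neurons affected in Alzheimer's disease.

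The tissue was entorhinal cortex of male APP/PS1 mice, a transgenic line of The Jackson Laboratory that expresses mutant amyloid precursor protein and mutant presenilin 1 under the prion promoter and deposits amyloid in the brain. OLE is N-oleoyl-leucine, labelled C18:1-Leu, an N-acyl amino acid that the enzyme PM20D1 can make. One group drank OLE at 25 mg/kg/day in alkaline water and the other the DMSO vehicle, both starting at 15 months of age, and all mice were 18 months old at sampling. Each group was a single library from tissue pooled over 5 mice, and no library of wild-type mice was analysed here. With 1 library per group no test of OLE was possible, and treatment, pool of mice, dissection and library preparation cannot be told apart. All intervals given are 95% intervals that cover counting error only. They are exact, apart from those for a difference of shares, which combine the exact intervals of both shares.

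The libraries held 70845739 UMIs (vehicle) and 69485537 UMIs (OLE). They shared 14 cell barcodes, of which 1 belonged to a Reln-rich nucleus. The eligible nuclei had a median of 22166 UMIs in the vehicle and 17990 in the OLE library, while the Reln-rich nuclei were close in depth, with medians of 31085 and 31704 UMIs and sums of 4920649 and 4015088 UMIs. Among the 25 clusters into which the eligible nuclei fell, cluster 1 was shallow, with medians of 7424 and 7704 UMIs, and came mostly from the OLE library, with 83 nuclei from vehicle and 342 from OLE mice. Each library had 4 Reln-rich nuclei there. A doublet score placed 6 Reln-rich nuclei of the vehicle and 10 of the OLE library in the top 5% of their library.

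The counts that chose these nuclei are given as a description. Reln (ENSMUSG00000042453, on the minus strand of chromosome 5, 21884454 to 22344702 of GRCm38) had a median of 26 UMIs per Reln-rich nucleus in the vehicle library, from 10 to 131, and of 22 UMIs in the OLE library, from 10 to 137. Summed over these nuclei, its level was 975 UMIs per 1000000 (947 to 1003) in vehicle and 836 (808 to 865) in OLE mice. In the other eligible nuclei it was 26.1 and 31.3 per 1000000. Just inside the limit, at 10 to 12 Reln UMIs, lay 16 nuclei of the vehicle and 24 of the OLE library, and just outside it, at 7 to 9 UMIs, lay 28 and 30. At the other end, 32 vehicle nuclei and 14 OLE nuclei had 50 or more. The counts ran on through the limit without a gap, as the plot of Reln counts shows. Slc17a7 had a median of 6 UMIs in both libraries, and Gad1 and Gad2 together were at 0 in most of these nuclei, with at least 1 UMI in 15.6% and 24.1%.

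**Figure D1:**
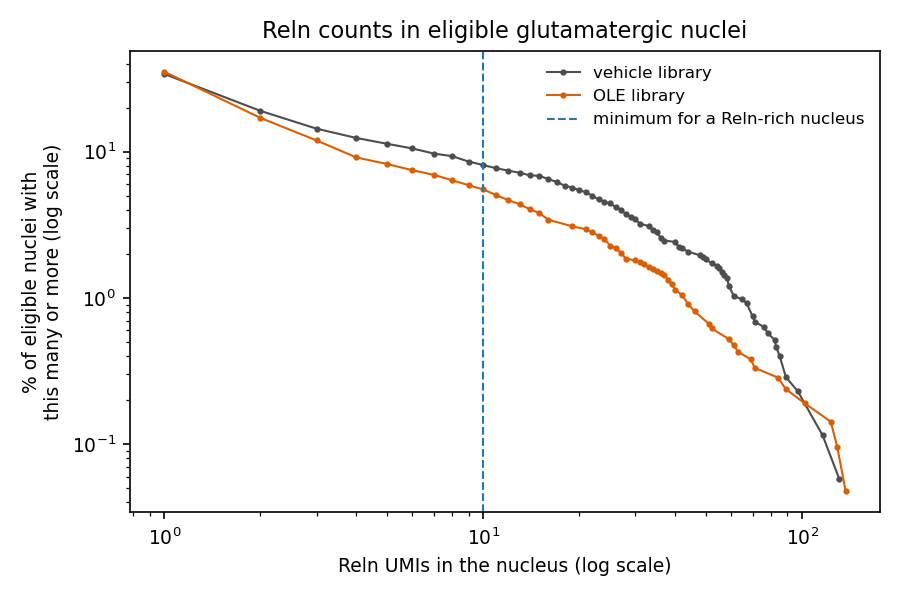
Share of the eligible nuclei of each library (y axis, percent, log scale) that held at least a given number of Reln UMIs (x axis, UMIs in the nucleus, log scale), with a dashed line at the minimum of 10. The curves cross the line at 8.10% for vehicle and 5.52% for OLE, with no gap in the counts on either side.

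Reln was detected in most cell classes at a low level, so a single UMI says little. In nuclei that carried oligodendrocyte markers, a type that should lack Reln, 14.4% (11.7 to 17.4) of 617 vehicle nuclei and 15.9% (13.0 to 19.2) of 553 OLE nuclei had a Reln UMI, at median depths of 3602 and 3368 UMIs. In the other eligible nuclei the share was 28.1% and 31.4%, at the larger median depths of 21651 and 17476. Per 1000000 UMIs the order was the other way. Reln stood at 41.4 and 60.6 in the oligodendrocyte-marker nuclei and at 26.1 and 31.3 in the other eligible nuclei. A count of 10 or more was seen in 0 of the vehicle and 1 of the OLE oligodendrocyte-marker nuclei. GABAergic nuclei, with at least 10 Gad1 and Gad2 UMIs, were rich in Reln too. Their level was 629 and 594 UMIs per 1000000, and 56 of 185 vehicle and 55 of 190 OLE nuclei held 10 or more Reln UMIs.

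Glutamatergic markers that the rule did not use were present. Camk2a stood at 584 UMIs per 1000000 in vehicle and 576 in OLE and Nrgn at 67.9 and 95.1. Slc32a1, the vesicular GABA transporter, had 6 and 7 UMIs in all. The list of 13 GABAergic markers summed to 462 UMIs per 1000000 in vehicle and 393 in OLE, against 326 and 440 in the other eligible nuclei, and Erbb4, which the list holds, gave 1737 of its 2275 UMIs in vehicle and 977 of 1576 in OLE. Single Reln-rich nuclei held up to 239 UMIs of the list in vehicle and 170 in OLE, beside medians of 5 and 4. Of 9 genes of Cajal-Retzius cells, the reelin-making cells of the cortical surface, Lhx1, Nhlh2 and Eomes had no UMI in either library, which allows a level of up to 0.610 per 1000000 in vehicle and 0.747 in OLE, Lhx5 had 0 and 1, and Trp73 had 15 and 5 UMIs. The list summed to 79 and 74 UMIs, of which 50 and 54 were of Slc17a6, the other main vesicular glutamate transporter, which was lower than in the other eligible nuclei, and 8 and 12 of Ndnf. The 9 genes of hippocampal principal cells summed to 162 and 127 UMIs, or 32.9 and 31.6 per 1000000 against 43.0 and 55.6 in the other eligible nuclei. Fn1, the fibronectin gene, held 132 and 91 of these UMIs, while Prox1 had 4 and 9 and C1ql2 3 and 2. The 5 vascular genes summed to 17 and 24 UMIs, and the microglial list summed to 205 and 154 UMIs over 7 genes.

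Reln-rich nuclei made up a smaller share of the eligible nuclei in the OLE library. The share was 8.10% (6.86 to 9.48) of 1741 nuclei with vehicle and 5.52% (4.58 to 6.58) of 2103 nuclei with OLE, a difference of -2.58 percentage points (-4.25 to -0.950). The denominators differed too, since eligible nuclei were 25.8% of all vehicle nuclei and 34.1% of all OLE nuclei. Counted against all nuclei, the shares were 2.09% and 1.88%, a difference of -0.211 points (-0.703 to 0.284). Outside cluster 1 the shares were 8.26% and 6.36%. After every eligible nucleus was thinned to 6000 UMIs, with a minimum of 3 Reln UMIs, they were 7.70% and 5.52%. Fewer cells of a type and less RNA per cell cannot be told apart by a rule with a fixed count, and the median depth of the eligible nuclei differed as given above.

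The Reln-rich nuclei were not of 1 kind. When the eligible nuclei were clustered on 2000 variable genes without the 4 genes of the rule, 229 of the 257 Reln-rich nuclei (89.1%) fell in 4 clusters, 28 were spread over others, and 13 of the 25 clusters held none. Of the 28, 8 lay in cluster 1, whose leading genes included the vascular markers Rgs5 and Flt1 and the GABAergic markers Sst and Vip. A further 4 lay in cluster 17, with the astrocyte marker Slc1a3, and 3 in cluster 22, with the oligodendrocyte markers Mag and Mog. Cluster 9 held 47 Reln-rich nuclei of the vehicle and 34 of the OLE library, cluster 19 held 34 and 23, cluster 3 held 25 and 25, and cluster 11 held 22 and 19. The clusters are called by number, and their leading genes are given as a description, since the clustering used them.

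**Figure D2:**
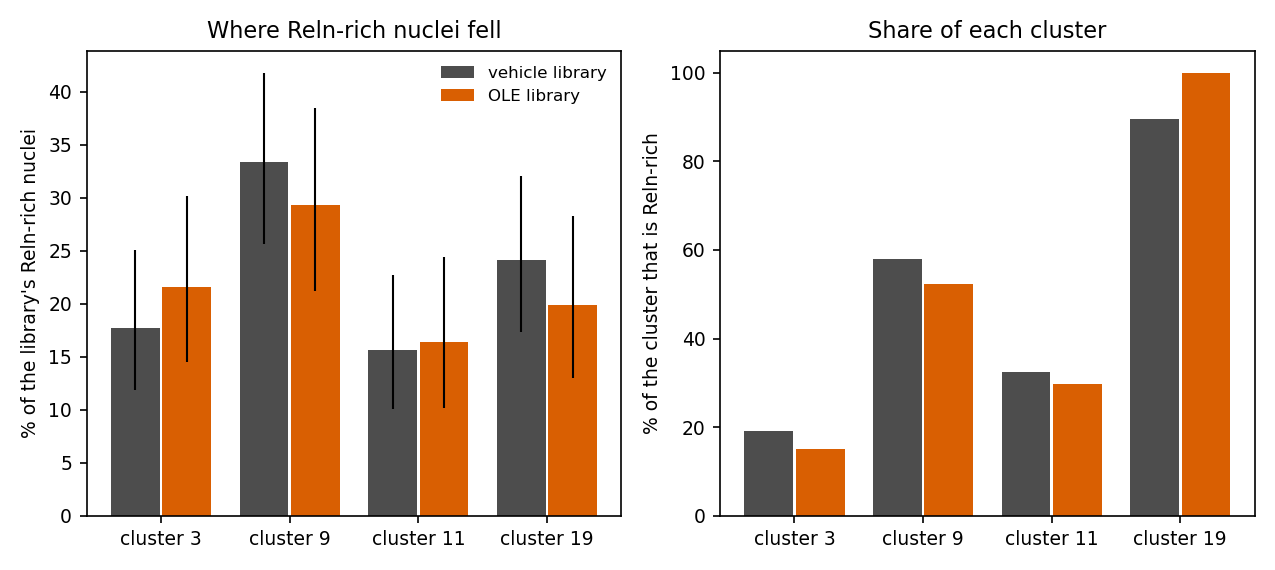
Left, percent of each library's Reln-rich nuclei in the 4 clusters that held at least 5% of them, with exact 95% counting intervals. Right, percent of the eligible nuclei of each cluster that were Reln-rich, without intervals. The intervals of both libraries overlap in all 4 clusters on the left, and on the right cluster 19 stands at 89.5% in vehicle and 100% in OLE.

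Cluster 19 was almost wholly Reln-rich. Its Reln-rich nuclei were 34 of 38 eligible nuclei in the vehicle and 23 of 23 in the OLE library, with a median of 28.5 and 36 Reln UMIs. It was led by Lef1, a transcription factor of Wnt signalling, Cpa6, a secreted carboxypeptidase, Cntnap3, a neurexin-related surface protein, Gpc5, a glypican of the cell surface, and Arhgef6. In its Reln-rich nuclei Cpa6 stood at 924 UMIs per 1000000 in vehicle and 894 in OLE. In the Reln-rich nuclei of clusters 3, 9 and 11 Cpa6 reached at most 25.5, and in those of all remaining clusters it had 5 and 33 UMIs. Gpc5 was at 3337 and 3542 per 1000000 there, Lef1 at 208 and 244, and Dcc, the netrin receptor, at 9666 and 9539.

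Cluster 9 was split within itself. Of its eligible nuclei 58.0% of 81 with vehicle and 52.3% of 65 with OLE were Reln-rich. The Reln-rich nuclei had medians of 35 and 26 Reln UMIs, while the remaining ones had medians of 0 and 1. Their median depth was 26986 UMIs for Reln-rich and 29988.5 for the other nuclei in vehicle, and 27907 and 34269 in OLE. The cluster was led by Fign, a microtubule-severing enzyme, Angpt1, the ligand of the Tie2 receptor, Gm32647, Cfap52, a cilium protein, and Mme, which encodes neprilysin, a peptidase that degrades amyloid-beta. Fign and Angpt1 were lower in its Reln-rich than in its other nuclei. Angpt1 was at 114 against 584 UMIs per 1000000 in vehicle and at 152 against 542 in OLE, log2 ratios of -2.36 (-2.61 to -2.12) and -1.84 (-2.09 to -1.59).

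Within cluster 9, of 3457 genes with enough counts, 41 (1.19%) were past 2-fold higher in the Reln-rich nuclei in both libraries and 24 (0.694%) past 2-fold lower. Erbb4, a neuregulin receptor, stood at 784 UMIs per 1000000 in Reln-rich against 55.0 in other vehicle nuclei and at 619 against 64.5 in OLE nuclei, log2 ratios of 3.83 (3.47 to 4.22) and 3.26 (2.91 to 3.64). Foxo1, a transcription factor restrained by insulin signalling, was at 156 against 3.49 and at 122 against 18.7. Ephb1, an ephrin receptor, was at 304 against 21.8 and at 258 against 40.2, and Grik1, a kainate receptor subunit, had log2 ratios of 3.72 and 2.34. The teneurin gene Tenm3 had ratios of 2.59 (2.42 to 2.78) and 2.57 (2.38 to 2.76).

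Cluster 3 was the largest of the 4 and the one with the smallest Reln-rich share, 19.2% of 130 nuclei with vehicle and 15.2% of 165 with OLE. It was led by Vmn1r209, a vomeronasal receptor gene, Dlk1, an imprinted Notch-like ligand, Dach1, a transcription factor, Smoc1 and Dcn, which encode secreted matrix proteins. Within it 29 of 5104 genes (0.568%) were past 2-fold higher in Reln-rich nuclei in both libraries and 52 (1.02%) past 2-fold lower. Dach1 was at 720 against 201 UMIs per 1000000 in vehicle and 505 against 165 in OLE, and Moxd1, a monooxygenase-related gene, at 102 against 30.9 in vehicle. Sema3e, a secreted semaphorin, stood at 24.4 against 108 and at 16.8 against 126, log2 ratios of -2.14 (-2.89 to -1.48) and -2.91 (-3.79 to -2.15). Dach1 was found in 13 of the 25 Reln-rich nuclei of this cluster with vehicle and in 12 of 25 with OLE.

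Cluster 11 differed least inside itself. Of its nuclei 32.4% of 68 with vehicle and 29.7% of 64 with OLE were Reln-rich, and the others had a median of 3 Reln UMIs in both libraries, the highest median among the other nuclei of clusters 3, 9 and 11. It was led by Erg, an ETS transcription factor, Gm44593, L3mbtl4, Teddm3 and Wwtr1, a co-activator of Hippo signalling. Of 3350 genes, 1 (0.0299%) was past 2-fold higher in its Reln-rich nuclei in both libraries, Npas3, a transcription factor at 154 against 50.6 UMIs per 1000000 in vehicle, with log2 ratios of 1.60 (1.19 to 2.03) and 1.29 (0.76 to 1.82). Past 2-fold lower were 11 (0.328%), among them Htr2c, a serotonin receptor, at 8.82 against 66.7 and 24.4 against 128. The Reln-rich nuclei were also the deeper ones, with medians of 45111 and 38088 UMIs against 28580 and 30469 in the others. In cluster 19 only 4 nuclei were not Reln-rich, too few for such a comparison.

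**Figure D3:**
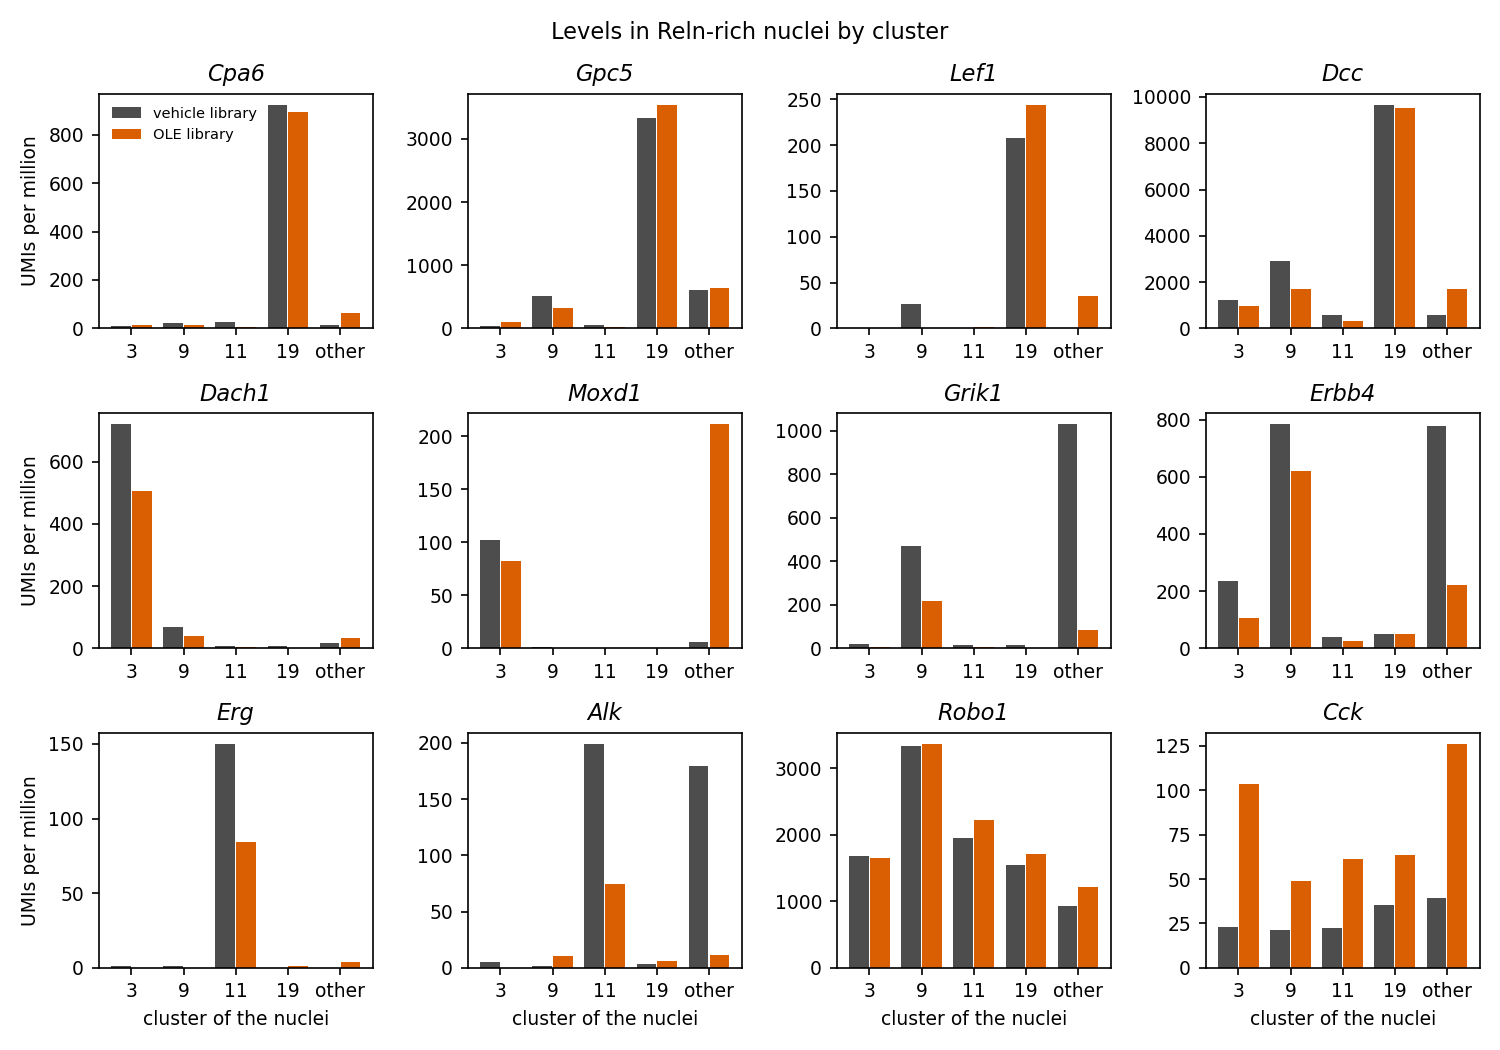
Level of 12 genes, in UMIs per 1000000 (y axes, each with its own scale), summed over the Reln-rich nuclei of clusters 3, 9, 11 and 19 and of all other clusters, for the vehicle and OLE libraries and without error bars. Cpa6, Gpc5, Lef1 and Dcc stand highest in cluster 19, Dach1 in cluster 3, Robo1 in cluster 9 and Erg in cluster 11. The other clusters hold only 13 and 15 Reln-rich nuclei.

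Set against the other eligible nuclei, Reln-rich nuclei carried more Lef1, Cpa6, Gpc5, Robo1 and Dcc and less Sema5b, Thsd7b and Rorb. Of 12366 genes with at least 100 UMIs in each library, 123 (0.995%) were past 2-fold higher and 263 (2.13%) past 2-fold lower in both libraries, and in a single library 190 (1.54%) were higher and 479 (3.87%) lower with vehicle and 164 (1.33%) and 550 (4.45%) with OLE. The median log2 ratio over all genes was -0.07 in vehicle and -0.10 in OLE. The libraries came from different mice, so a ratio seen in both was repeated over pools.

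Lef1 (chromosome 3, 131110471 to 131224356) had the highest ratio. It stood at 61.8 UMIs per 1000000 in Reln-rich nuclei and 1.81 in others with vehicle, and at 51.8 and 1.53 with OLE, a log2 ratio of 5.09 in both (4.71 to 5.49 and 4.66 to 5.53). It was found in 42 of 141 and 27 of 116 Reln-rich nuclei. Cpa6 (chromosome 1, 10324720 to 10719945) followed, at 254 against 19.5 and 188 against 14.9 per 1000000, ratios of 3.70 (3.57 to 3.83) and 3.66 (3.50 to 3.82). Neither gene therefore marked all Reln-rich nuclei, and Cpa6 was found in 65 and 41 of them.

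Other surface and matrix genes followed. Cntnap3 had log2 ratios of 2.76 (2.60 to 2.91) and 2.37 (2.19 to 2.55), Gpc5 of 2.94 (2.88 to 2.99) and 2.29 (2.23 to 2.35), and Dchs2, a giant protocadherin, of 2.53 (2.31 to 2.75) and 1.99 (1.75 to 2.22). Gpc5 is also abundant in astrocytes. The list of 6 astrocyte markers summed to 1174 and 999.98 UMIs per 1000000 in Reln-rich nuclei against 329 and 403 in the others, and Gpc5 held 5296 of its 5777 UMIs in vehicle and 3530 of 4015 in OLE. Of its other members Slc4a4, a bicarbonate transporter, had 340 and 271 UMIs, Slc1a3 103 and 165, Aqp4 6 and 21, Gja1 14 and 20 and Gfap 18 and 8. The part of astrocyte RNA in the Gpc5 ratio was not tested. Among enzymes and signalling genes, Plpp4, a lipid phosphatase, had ratios of 2.47 and 2.22, Rasgrp2, an activator of Rap GTPases, of 2.35 and 2.21, Mme of 1.90 and 2.20, and Stac, an adaptor of calcium channels, of 2.18 and 1.89.

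The transcription factors Erg and Dach1 had ratios of 3.01 and 2.28 and of 2.34 and 1.96. Each was carried by few nuclei, since Erg was found in 17 and 14 and Dach1 in 44 and 33 Reln-rich nuclei. The endothelial genes among the vascular markers were near 0 beside Erg, with 1 and 0 UMIs of Cldn5 and 2 and 3 of Flt1. L3mbtl4 was at 1.90 and 2.27, Tmem132c at 2.22 and 1.99, and the long noncoding RNAs Gm36251 and 6530403H02Rik at 2.51 and 2.26 and at 2.17 and 1.98. The RNA 6530403H02Rik was the most widely found of the 15 highest genes, in 115 of 141 and 95 of 116 nuclei.

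**Figure D4:**
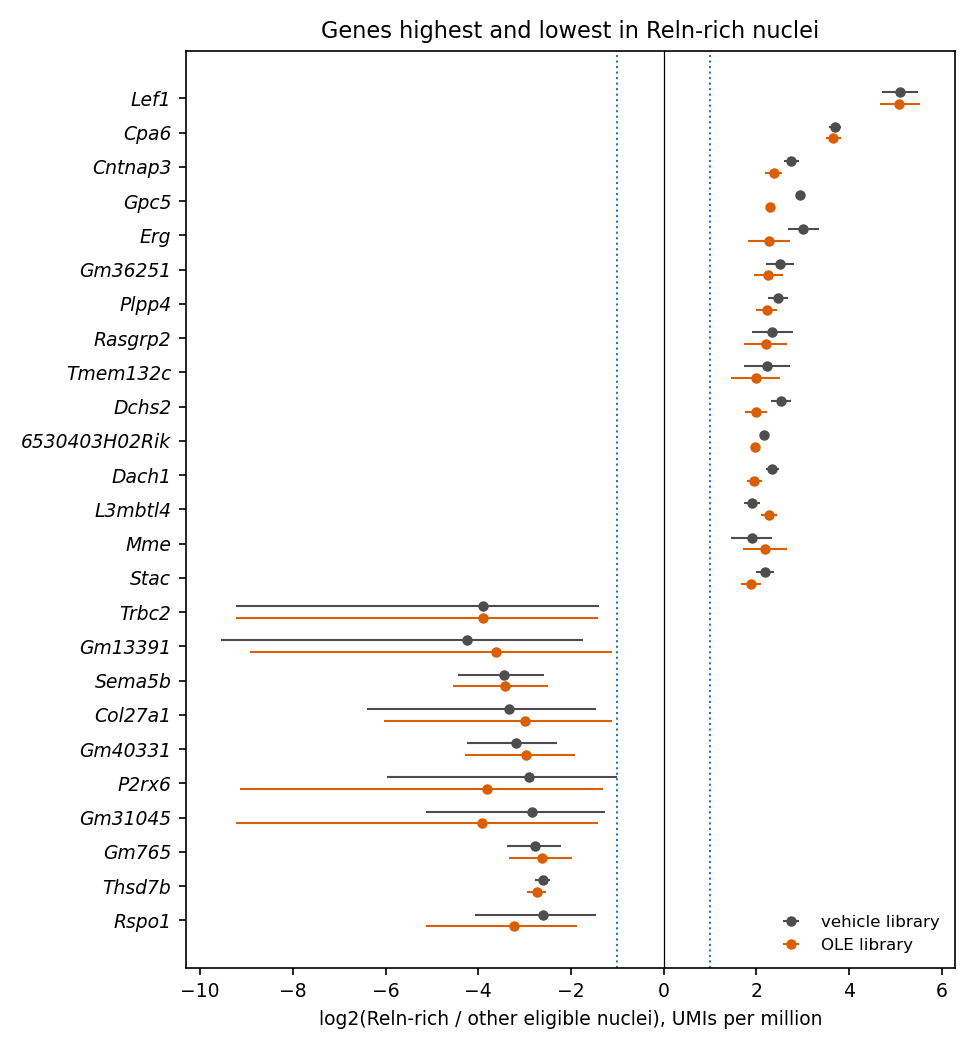
Log2 ratio of the level in Reln-rich nuclei to that in the other eligible nuclei (x axis) for the 15 genes with the highest and the 10 with the lowest ratio in the weaker library, with exact 95% counting intervals and dotted lines at 2-fold. The 2 libraries lie on the same side of 0 for every gene shown, from Lef1 at 5.09 down to genes with wide intervals that rest on 1 to 3 UMIs in the Reln-rich nuclei.

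Sema5b, a semaphorin of axon guidance, stood at 2.24 against 24.2 UMIs per 1000000 in vehicle and 2.24 against 24.0 in OLE, log2 ratios of -3.43 (-4.44 to -2.59) and -3.42 (-4.55 to -2.49). Thsd7b, a thrombospondin-domain gene that is high in deep-layer neurons, was at 61.0 against 372 and 52.1 against 347, ratios of -2.61 (-2.78 to -2.44) and -2.74 (-2.94 to -2.54). Gm765 was at -2.77 and -2.62, the long noncoding RNA Gm40331 at -3.18 and -2.96, and Rspo1, a secreted enhancer of Wnt signalling, at -2.60 and -3.24. Trbc2, Gm13391, Col27a1, P2rx6 and Gm31045 were seen in the Reln-rich nuclei with 1 to 3 UMIs in each library, and their ratios carry wide intervals, such as -9.22 to -1.39 for Trbc2 in vehicle.

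Genes named for cortical layers did not place the Reln-rich nuclei in 1 layer. Every layer list held genes past 2-fold higher and genes past 2-fold lower in both libraries, against 0.995% and 2.13% of all genes. Of 12 layer 2 and 3 genes, 1 was past 2-fold higher in both libraries (Lef1) and 4 were lower (Wfs1, Smoc2, Stard8 and Pou3f3), with medians of -0.65 and -0.69. Wfs1, a gene of layer 2 pyramidal cells that lack reelin, was at 6.30 against 15.7 UMIs per 1000000 in vehicle, with log2 ratios of -1.31 and -1.28. Calb1, another marker of those cells, was at 0.37 and 0.29 on the log2 scale. Of 6 middle-layer genes Il1rapl2 was higher, at 1.54 and 1.45, and Rorb and Rspo1 were lower, with -1.48 and -1.65 for Rorb. Of 10 layer 5 genes Vat1l and Stac were higher and Tshz2 lower, at -1.81 and -2.05. Of 9 measured layer 6 and subplate genes Ntsr1 was higher, at 1.49 and 1.27, and Foxp2, Syt6, Thsd7b and Cobll1 were lower.

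Of 37 measured axon guidance genes, 6 were past 2-fold higher in both libraries, against 0.995% of all genes, and 1 was lower, against 2.13%, while the list's median was 0.17 and 0.11. Robo1, the Slit receptor, stood at 2149 against 611 UMIs per 1000000 in vehicle and 2204 against 543 in OLE, ratios of 1.81 (1.78 to 1.85) and 2.02 (1.98 to 2.06), and was found in 140 of 141 and 114 of 116 Reln-rich nuclei. Dcc was at 3743 against 889 and 2805 against 876, ratios of 2.07 and 1.68, with its high level in cluster 19 described above. Ntng1, a netrin-like surface protein, was at 1.06 and 1.38, the ephrin receptors Epha3 and Ephb1 at 1.24 and 1.05 and at 1.24 and 1.34, and the repellent Sema3a at 1.45 and 1.02. The lower gene was the semaphorin Sema3e, at -1.06 and -1.73.

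Of 41 synaptic adhesion genes 5 were past 2-fold higher and 3 lower, against 0.995% and 2.13% of all genes, with medians of -0.03 and 0.03. The higher ones were Cntn5, a contactin (1.27 and 1.22), Tenm1, a teneurin (1.27 and 1.11), and the cadherins Cdh4, Cdh9 and Cdh13, with 1.60 and 1.45 for Cdh13. The lower ones were Cntnap4, Adgrl2 and Cdh11. Cntn5 was as widespread as Robo1, in 140 and 114 Reln-rich nuclei.

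Ion channel and GABA receptor genes mostly differed little, beside 0.995% of all genes past 2-fold higher and 2.13% past 2-fold lower in both libraries. Of 48 measured channel genes 1 was past 2-fold higher and 1 lower in both libraries. The lower one was Kcnh5, a voltage-gated potassium channel, at -2.26 and -2.12, and Kcnq5, a subunit of the M-current, was at -1.03 and -0.91. Of 23 glutamate receptor genes none was higher and 3 were lower, against 2.13% of all genes. These were Grik3, Grik4 and Grm3, with -2.07 and -1.70 for Grik4. Of 14 GABA receptor genes none was past 2-fold, and of 26 synaptic vesicle genes only Unc13c was, a priming factor at 2.37 and 1.58.

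By median, the other genes of the reelin pathway stood close to the other eligible nuclei, at 0.02 and -0.07. Of 28 measured, Reln left out of the count, none was past 2-fold in either direction in both libraries. Over all genes 0.995% were higher and 2.13% lower, so finding none among so few genes says little. The adaptor Dab1 was at 3462 against 2331 UMIs per 1000000 in vehicle and 3146 against 2194 in OLE, ratios of 0.57 (0.55 to 0.59) and 0.52 (0.49 to 0.55). The receptor genes were at 0.39 and 0.19 for Lrp8 and 0.17 and 0.16 for Vldlr. Immediate early genes, which neuronal activity induces, were past 2-fold lower for 5 of 15 measured (Fos, Fosl2, Arc, Egr1 and Nptx2), against 2.13% of all genes, with medians of -0.89 and -0.67, though Fos rested on 4 and 7 UMIs. None of 82 ribosomal protein genes and none of 13 mitochondrial genes was past 2-fold in both libraries, against the same shares of all genes.

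Across the 25 clusters of all eligible nuclei, the genes whose level followed Reln most closely were Crb1, a cell polarity gene (Pearson's r of log2 levels 0.77), Robo1 (0.74), Psmc3, a proteasome subunit (0.73), Sde2 (0.71), Gm45341, C130073E24Rik, Lef1 (0.65), Ankib1, Gm26776 and Mxd4. The points share their libraries, and the clusters differ in depth, so the values are a description.

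The comparison of OLE with vehicle within Reln-rich nuclei asks whether these nuclei differed between the OLE and vehicle libraries. In the OLE library Reln-rich nuclei carried more Cck, Adarb2, Pgrmc1 and Apoe and more of several endoplasmic reticulum chaperones, and less Grik1 and Alk. Of 5726 genes with at least 200 UMIs, 102 (1.78%) were past 1.5-fold higher and 25 (0.437%) past 1.5-fold lower in OLE, around a median log2 ratio of 0.03. In the other eligible nuclei 81 of 5725 genes (1.41%) were past 1.5-fold higher and 0 lower. Of the 102 higher genes 39 were also past that fold in the other nuclei and 93 had the same sign there. Of the 25 lower genes 0 were past it there and 17 had the same sign. The other eligible nuclei summed to 37524381 and 39319433 UMIs, and whether the sets of nuclei differed in their response was not tested. Their make-up by cluster differed between the libraries. Cluster 1 had 83 vehicle and 342 OLE eligible nuclei, and cluster 24 had 0 and 31. The ratios in the other eligible nuclei were not adjusted for this make-up.

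Cck, the cholecystokinin gene, was spread over many nuclei. Its level was 26.8 UMIs per 1000000 in vehicle and 75.2 in OLE, a log2 ratio of 1.49 (1.19 to 1.79), with a UMI in 80 of 141 and 80 of 116 nuclei. It was higher in OLE in each of the 4 clusters, from 0.84 (0.23 to 1.46) in cluster 19 to 2.16 (1.41 to 2.98) in cluster 3, and in the other eligible nuclei at 1.09 (1.02 to 1.15). Pgrmc1, a haem-binding membrane protein, was at 33.3 and 70.2 per 1000000, a ratio of 1.08 (0.79 to 1.36) beside 1.00 in the other nuclei. Gaa, the lysosomal acid alpha-glucosidase, was at 1.02 (0.67 to 1.36) beside 0.57, and Apoe, the main lipid carrier of the brain, at 1.02 (0.69 to 1.36) beside 1.22. For Apoe the ratio was 0.67 among the Reln-rich nuclei of the 4 clusters alone. In OLE 41.2% of its UMIs lay in 5 nuclei, and in vehicle 25%.

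Adarb2, an RNA-editing enzyme relative that is abundant in some interneurons, had the highest ratio. It stood at 17.7 UMIs per 1000000 in vehicle and 85.7 in OLE, a ratio of 2.28 (1.93 to 2.63), beside 0.74 in the other eligible nuclei. Of its 3966 OLE UMIs in those other nuclei, 805 lay in cluster 24, which had 0 vehicle and 31 OLE nuclei. Adarb2 was found in 47 of 141 and 49 of 116 Reln-rich nuclei. There 68.3% of its 344 UMIs in OLE lay in 5 nuclei, and 225 of them in 13 nuclei of cluster 9. Without the 5 highest nuclei of each library the ratio was 1.32. Moxd1 was at 16.7 and 44.1 per 1000000, a ratio of 1.40 (1.02 to 1.80), but 109 of its 177 UMIs in OLE lay in 3 nuclei outside the 4 clusters, and without the 5 highest nuclei of each library the ratio was -0.46. Megf11 was at 19.3 and 45.8 per 1000000. Pde11a, a phosphodiesterase, had a ratio of 1.20 (0.88 to 1.51) beside 0.06, Fbxl7 1.18 (0.91 to 1.46) beside 0.21 and Col23a1, a membrane collagen, 1.06 (0.82 to 1.30) beside 0.18. For Fbxl7 the ratio was 0.36 among the Reln-rich nuclei of the 4 clusters alone.

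Grik1 (chromosome 16, 87895900 to 88290265) was among the lower genes with most counts. It had 1117 UMIs in vehicle and 306 in OLE, at 227 and 76.2 per 1000000, a ratio of -1.57 (-1.76 to -1.39), beside 0.01 (-0.05 to 0.07) in the other eligible nuclei. It was carried by 68 of 141 and 39 of 116 nuclei, mainly in cluster 9, where it was at 471 and 217 per 1000000 (-1.12, -1.33 to -0.91). In the 28 Reln-rich nuclei outside the 4 clusters it was at 1030 and 83.3. It was lower in OLE in each cluster, on 14 to 16 vehicle UMIs in clusters 3, 11 and 19.

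Alk, a receptor tyrosine kinase, was at 56.5 and 19.4 UMIs per 1000000, a ratio of -1.54 (-1.92 to -1.17), with 203 of its 278 vehicle UMIs in cluster 11. Npsr1, the neuropeptide S receptor, had the lowest ratio, -1.83 (-2.32 to -1.36), but 95.5% of its 200 vehicle UMIs lay in 5 nuclei, and without the 5 highest nuclei of each library its ratio was 1.07. Pth2r, a parathyroid hormone receptor (-1.09), Mkx (-1.04), Tmtc2 (214 and 107 per 1000000), Erg (-0.97), Nxph1, a neurexophilin (-0.91), Sema3e (-0.87) and Trpc6, a cation channel (-0.87), completed the 10 lowest, and their ratios in the other eligible nuclei lay from -0.24 to -0.01. Nxph1 had 218 of its 280 vehicle UMIs in 5 nuclei outside the 4 clusters. Genes with 50% or more of their UMIs in 5 nuclei were 10 of the 102 higher and 5 of the 25 lower ones, against 0.646% of all genes.

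**Figure D5:**
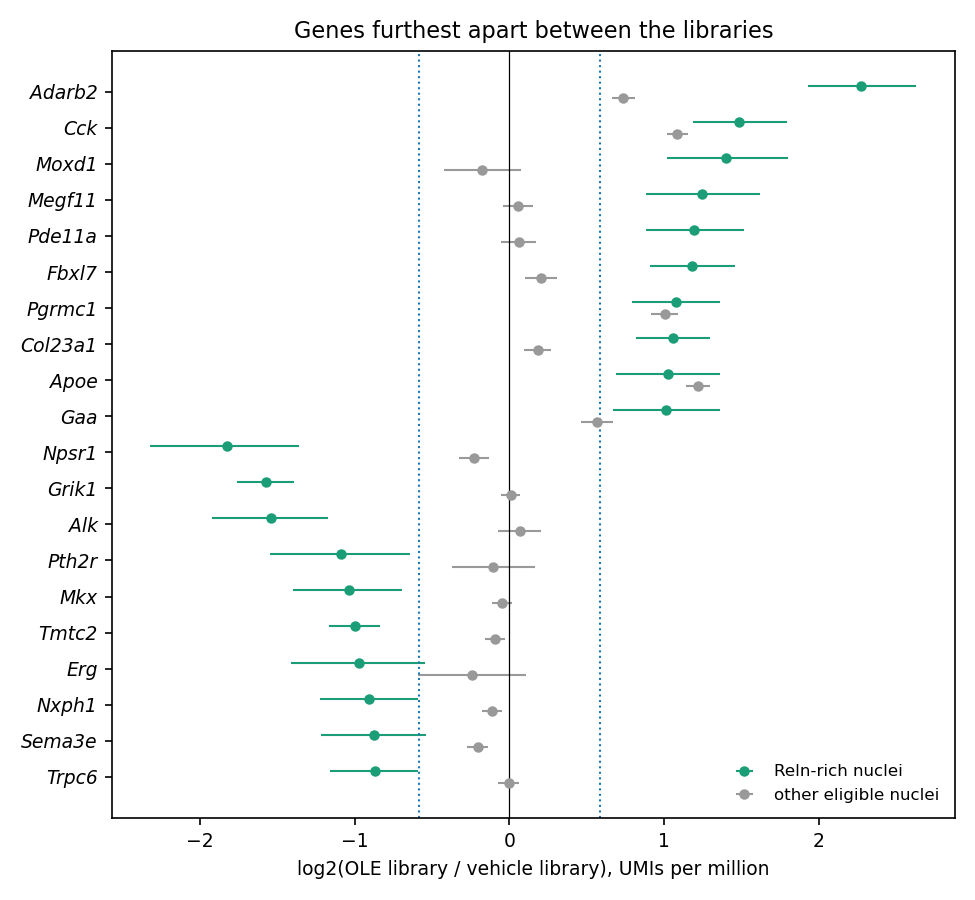
Log2 ratio of the OLE to the vehicle library (x axis) in Reln-rich nuclei and in the other eligible nuclei for the 10 genes with the highest and the 10 with the lowest ratio in Reln-rich nuclei, with exact 95% counting intervals and dotted lines at 1.5-fold. Adarb2, Cck, Pgrmc1 and Apoe lie past the line in both sets, and the points of all 10 lowest genes lie inside the lines in the other eligible nuclei. The other eligible nuclei differed in cluster make-up between the libraries, and their ratios were not adjusted for it.

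Genes of protein folding in the endoplasmic reticulum were higher as a list. Of 12 measured, 4 were past 1.5-fold higher, against 1.78% of all genes, 10 had a ratio above 0, and the median was 0.51, beside 0.43 for these genes in the other eligible nuclei and 0.03 over all genes. Calr, a calcium-binding chaperone, was at 43.9 UMIs per 1000000 in vehicle and 87.4 in OLE, a ratio of 0.99 (0.75 to 1.25), and was higher in each of the 4 clusters, from 0.55 (-0.07 to 1.19) in cluster 3 to 1.49 (0.93 to 2.08) in cluster 9. Hspa5, the main chaperone of the compartment, was at 0.82 (0.55 to 1.08), Hsp90b1 at 0.60 (0.37 to 0.83) and Pdia6, a disulfide isomerase, at 0.65 (0.34 to 0.95). Atf6 and Sel1l were at -0.21 and -0.06. Of 11 measured cytosolic and mitochondrial chaperones only Hspa8 was past the fold, at 0.89 (0.66 to 1.14), with a median of 0.17.

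Of 21 measured genes of amyloid precursor processing and Alzheimer's disease, 4 were past 1.5-fold higher, against 1.78% of all genes, with a median of 0.22 beside 0.14 for these genes in the other eligible nuclei. They were Apoe, Cst3, which encodes cystatin C, at 0.97 (0.68 to 1.26), Clu, which encodes clusterin, at 0.71 (0.29 to 1.13) and Itm2c at 0.63 (0.38 to 0.89). Apoe, Clu and Cst3 are glial genes in the cortex and were lower in Reln-rich than in the other eligible nuclei, with ratios from -1.24 to -0.31. Slc1a3, the astrocyte glutamate transporter, was at 0.97 (0.61 to 1.34), found in 30 of 141 and 33 of 116 nuclei, with 63.1% and 57.0% of its UMIs in 5 of them. It was the only 1 of 3 measured astrocyte markers with a ratio above 0, and the median of the 3 was -0.03. The whole list stood at 1174 in vehicle and 999.98 UMIs per 1000000 in OLE. That sum mostly followed Gpc5, which held 5296 of its 5777 UMIs in vehicle and 3530 of 4015 in OLE. The remaining members went both ways, so the sum says little about astrocyte RNA. Of the other glial lists, the oligodendrocyte genes summed to 143 and 178 UMIs per 1000000, the 3 genes of oligodendrocyte precursors to 5.49 and 13.2, the microglial genes to 41.7 and 38.4 and the vascular genes to 3.45 and 5.98. Without nuclei that held over 10 glial or vascular UMIs other than Gpc5, Cst3 was at 0.91 and Calr at 0.96. Apoe had too few UMIs left there for a ratio. That setting keeps nuclei with up to 10 such UMIs, and Cst3 is not among the genes it counts. For Apoe, Clu, Cst3 and Slc1a3 the part of glial RNA was not tested.

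By median, the reelin pathway and the lists of membrane excitability stood near 0. Over all genes 1.78% were past 1.5-fold higher and 0.437% lower, so the few genes past the fold in these short lists say little. Reln itself was at -0.22 (-0.29 to -0.16), a value to which the rule contributes, beside 0.26 in the other eligible nuclei. Of 24 measured pathway genes, Reln included, none was past 1.5-fold, 8 had a ratio above 0 and the median was -0.04. Dab1 was at -0.14 (-0.17 to -0.10), Lrp8 at -0.04 (-0.29 to 0.20) and Vldlr at 0.32 (-0.02 to 0.66). Of 45 channel genes Trpc6 alone was past the fold, with a median of 0.01. Of 20 glutamate receptor genes Grik1 alone was past it, with a median of -0.01, and of 12 GABA receptor genes none was. Of 39 synaptic adhesion genes Slitrk1, a synapse-organising protein, was higher, at 0.62 (0.27 to 0.97), and of 28 axon guidance genes Sema3e was lower. Of 5 measured layer 6 and subplate genes 2 were past 1.5-fold higher over all Reln-rich nuclei, against 1.78% of all genes. They were Hs3st4, a heparan sulfate sulfotransferase, and Nr4a2, a nuclear receptor of deep-layer and subplate neurons. Their ratios were 0.60 (0.51 to 0.69) and 0.60 (0.21 to 0.98), beside -0.18 and 0.25 in the other eligible nuclei. The direction of both genes differed between clusters. Hs3st4 was at 1.11 (0.93 to 1.30) in cluster 3 and 2.48 (1.97 to 3.02) in cluster 11 but at -0.57 (-0.74 to -0.40) in cluster 9 and -1.43 (-2.26 to -0.68) in cluster 19. Nr4a2 had 2 and 45 UMIs in the 28 nuclei outside the 4 clusters and was at -1.09 (-2.02 to -0.24) in cluster 9.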

How the data were processed

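Single nuclei of entorhinal cortex were measured with 10x 3′ v3 chemistry in 2 libraries. The authors aligned reads to the mm10 pre-mRNA reference, so introns count, and deposited raw UMI counts per nucleus for 31053 genes. The submitters' notes name Cell Ranger 3.0.1 and Seurat 4.0.4, while the matrix header names Cell Ranger 3.0.2. No further filter on nuclei was applied beyond the rule, and doublets were scored with Scrublet (scanpy 1.11.5), whose automatic threshold called only 8 and 7 nuclei, so the top 5% served as an alternative. The study's methods say that doublets were removed, without settings.

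Counts were summed over nuclei per library and scaled per 1000000 UMIs, and ratios were called past 2-fold in both libraries (Reln-rich against other eligible nuclei, at least 100 UMIs in each library) or past 1.5-fold (OLE against vehicle, at least 200 UMIs over both). Intervals are exact Poisson or Clopper-Pearson intervals, and for a difference of shares they combine those of both shares. Clustering used 30 principal components, 20 neighbours and Leiden resolution 0.5 (leidenalg 0.10.2). Within clusters, genes needed at least 100 UMIs in each library. Genes are named if among the 15 highest or 10 lowest ratios (10 and 10 for OLE), the 5 leading genes of a cluster with at least 5% of the Reln-rich nuclei, the 10 genes most like Reln, or a reported list. The members and lists were chosen with earlier results of these data known. Comparisons within clusters, the classes set beside Reln, the log2 scale of the likeness to Reln and the count of UMIs in 5 nuclei were chosen only once the values were known, and the genes named within clusters come from the 10 highest or lowest there and were chosen in the same way. Gene positions come from GENCODE vM21 on GRCm38, which matched 30934 gene identifiers. The calculation was tested on simulated counts. The scripts ran under Python 3.11.15 with scipy 1.17.1, pandas 2.3.3 and numpy 2.4.6, and figures were drawn in matplotlib 3.10.9. Some genes are not reported here.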

Additional observations from a re-analysis of the deposited data

How the results depend on the processing

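With 1 library per group no value has a replicate, and 5726 of 31053 genes reached 200 UMIs in the Reln-rich nuclei. No paired analysis was possible because each group is 1 library and the labels carry no shared replicate numbers. The difference in share lay between -3.09 and -1.90 percentage points under the other minimums, after thinning and without high doublet scores or cluster 1, but was -0.211 with all nuclei as denominator. Against 123 higher and 263 lower genes in Reln-rich nuclei, thinning to 6000 UMIs gave 77 and 169 of 8857 genes and a minimum of 20 UMIs gave 208 and 631 of 16163. Of 136 ratios of single genes recomputed here, 104 stayed within their counting interval, 32 moved and 0 changed sign, while Erg and Gm31045 gave no ratio at a Reln minimum of 20, nor did genes left under the count minimum after thinning. The 104 include every ratio at the minimum of 20 UMIs, a setting that changes which genes are counted but cannot change a ratio.

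Against 102 higher and 25 lower genes with OLE, a minimum of 50 UMIs gave 527 and 165, a minimum of 1000 gave 2 and 3 of 1459 genes, and thinning gave 8 and 5 of 1278. A Reln minimum of 20 gave 57 and 35. Leaving out nuclei with over 5 glial or vascular UMIs left 22 and 16 Reln-rich nuclei and gave 30 and 54 of 767 genes. Leaving out those with over 10 such UMIs, Gpc5 not counted, left 96 and 76 nuclei and gave 63 and 36 of 4148 genes. Leaving out the 5 highest nuclei of each gene gave 120 and 41, and turned Moxd1 to -0.46 and Npsr1 to 1.07. The last 2 settings, like the 4 clusters alone and the share without cluster 1 or over all nuclei, were chosen after seeing the data. Of the 20 OLE genes named by rank, the fold of 1.5 held for 19 when each nucleus counted the same (Erg, at -0.58, did not), for 18 without the 5 highest nuclei, for 16 of 17 in the 4 clusters alone and for 20 when clusters were weighted alike or doublet scores removed. Of 246 single-gene ratios 214 stayed within their interval, 30 moved and 2 changed sign. The 214 include every ratio at the minimums of 50 and 1000 UMIs, which cannot change a ratio. They also include every ratio after scaling by the median ratio over all genes, which only took 0.03 off each. The causes were not tested, apart from the smaller number of genes or nuclei that a setting itself leaves.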
